A study of Mus musculus with 2 samples.

Results

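The genes described here were 10 immediate early transcription factor genes and regulators of the AP-1 and Egr families, Fos, Fosb, Fosl2, Jun, Junb, Jund, Egr1, Egr2, Atf3 and Ier2. They were found by taking every non-control probe whose gene name in the array files was one of these symbols, which gave 16 probes for 10 of the 37074 gene names on the array. RNA came from peritoneal macrophages, which live in the abdominal cavity, of wild-type (WT) mice and of mice that lack MeXis, a long noncoding RNA gene near Abca1 (MeXis null), with the strain given as bl6 for both. The cells had been kept in DMEM with 10% serum and antibiotics, and the labels name no ligand, stimulus, age or time in culture for either genotype. RNA of 3 samples was pooled onto 1 one-colour Agilent array per genotype, so a difference between the genotypes has no replicate check, no test and no p-value. How the MeXis null allele was made is not given in the sources used here. Because the RNA is bulk RNA, fewer cells of a type and less RNA per cell cannot be told apart.

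Immediate early genes are transcribed within minutes of a signal such as serum, a growth factor, stress or a bacterial product, without new protein synthesis. MAP kinases and calcium signals activate factors already bound at their promoters, above all serum response factor with its ternary complex partners and the CREB and ATF proteins. The Fos and Jun proteins pair through leucine zippers to form AP-1, which binds DNA at the sequence TGAGTCA, while the Egr proteins bind GC-rich sites through zinc fingers. In macrophages these factors are known for the first wave of the response to adhesion, colony-stimulating factor and Toll-like receptor ligands, and Atf3 is known to restrain the inflammatory genes of that response.

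The probes decide which transcript end is read, and the members with several probes did not always give the same answer, so the start of each such probe is shown here (the first 30 bases of 60, 5′ to 3′, all in lower case, from the array files). The coordinates are those of the files, on mm9. No annotation of that build was used here, so exons and introns are not assigned.
Ier2, chr8:87185211-87185245: ctgaactgaaccaatcaaatctgcgcagag
Ier2, chr8:87183623-87183681: ccccccgggaagtttaagatcattcttaac
Jund, chr8:73224436-73224495: ttttgctacgagtccacattcctgttccgt
Jund, chr8:73224302-73224361: tgcgtgttgagtgtgtgtttccttgtgttg
Junb, chr8:87500843-87500902: ttcgtgtctaaagtctattttaagatgtgt
Junb, chr8:87501881-87501940: agggctttgcggacggttttgtcaaagccc
Junb, chr8:87496635-87496694: caatcactccaccaactaagccaaattccc
Fosb, chr7:19888168-19888227: actgccgaccacaattcattgactccatag
Fosb, chr7:19890146-19890205: ccttcttgctctgtaaactctttagacaaa
Fosl2, chr5:32460076-32460135: gctatggaggaaagaacatattaaaaactt
Fosl2, chr5:32455088-32455147: gattgctgagctgcagaaggagaaggagaa
The Ier2, Junb and Fosb probes lie on the minus strand and the Jund and Fosl2 probes on the plus strand. The first Ier2 probe is given a genomic span of 35 bases in the files although the probe has 60. Atf3, Egr1, Egr2, Fos and Jun have 1 probe each.

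The promoters were read from RefSeq sequences of GRCm38.p6, with windows from 250 bases before to 50 bases after each annotated start, for 8 of the 10 members (Egr1 and Ier2 were not analysed this way). Motifs were searched on both strands. The 100 bases before the start are shown for the members whose stretch held a motif searched, with the motifs in capitals.
Fos, chr12:85473790-85473889, plus strand: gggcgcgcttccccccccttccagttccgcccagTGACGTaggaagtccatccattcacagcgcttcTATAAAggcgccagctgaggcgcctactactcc
Jun, chr4:95052223-95052322, minus strand: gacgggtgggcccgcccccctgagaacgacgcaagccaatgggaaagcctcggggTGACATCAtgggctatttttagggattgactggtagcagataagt
Egr2, chr10:67537769-67537868, plus strand: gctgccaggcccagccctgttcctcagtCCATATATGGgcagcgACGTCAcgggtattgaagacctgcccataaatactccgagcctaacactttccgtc
Atf3, chr1:191183334-191183433, minus strand: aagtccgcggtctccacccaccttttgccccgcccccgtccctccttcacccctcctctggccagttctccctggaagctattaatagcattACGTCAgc
Fosb, chr7:19310046-19310145, minus strand: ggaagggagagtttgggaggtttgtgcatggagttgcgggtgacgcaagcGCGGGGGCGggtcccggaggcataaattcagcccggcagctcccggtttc
Fosl2, chr5:32136372-32136471, plus strand: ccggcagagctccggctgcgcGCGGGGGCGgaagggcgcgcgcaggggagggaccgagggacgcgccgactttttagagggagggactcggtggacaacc
TGACGT, the core of the cyclic AMP response element, or its reverse complement was in the windows of Fos, Egr2 and Atf3, which are 5 of the 12 member windows, and in 7.51% of all 32851 windows. The member windows are not independent, because Egr2 has several annotated starts whose windows overlap. The full palindrome TGACGTCA, which contains that core, was in 0 of the 12 and in 1.79% of all windows. TGAGTCA, the AP-1 site, was in 0 of the 12 and in 5.20% of all, and its variant TGACATCA was in the Jun window and in 3.62% of all. The CArG box, bound by serum response factor, was found in Egr2 alone among the 8 (1.63% of all windows). GCGGGGGCG, an Egr-type site, was in Fosb and Fosl2 (2.91% of all), and TATAAA was in Fos and Junb (13.6% of all). These matches describe letters in a short window only. Sites outside it were not searched, so a motif not found here may still lie elsewhere near the gene.

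On the arrays the unit was the processed signal, a linear intensity with background subtracted. The signals were put on the log2 scale relative to the 75th percentile of the probes well above background on both arrays, and every difference is MeXis null minus WT. Of 59305 non-control spots, 48.0% on WT and 44.3% on MeXis null were well above background, and the lowest such signal was 12.1 on WT and 27.3 on MeXis null. A scanner error accompanies each signal, and a difference was called beyond it when it exceeded 1.96 times the combined log2 error. A wider error came from 285 probes printed at least 5 times, whose spots differed between the arrays with a median SD of 0.48. Each member probe was 1 spot, so 1.96 times this SD (0.95, or 1.93-fold) served as the limit for a single spot. Probes differ in brightness, so signals of different probes are in general not put together or set against each other. The exceptions are the summed signals of the marker lists, the choice of the brightest probe of a gene and the median over its probes.

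Ier2, a short-lived nuclear protein induced together with Fos and Jun, was the only member that differed by more than this limit in the main setting. Its brighter probe read 142 ± 14.9 (scanner error) on WT and 459.9 ± 46.3 on MeXis null. The MeXis null array was therefore the higher one, by 3.08-fold, a difference of 1.62 with a scanner error of 0.21. There were 15586 gene names measured above background on WT and MeXis null alike, and 1.46% of them lay at least as far above 0 as Ier2 and 2.40% as far from 0 in either direction. The dimmer Ier2 probe, 1529 bases further along the transcribed strand, read 4.03 ± 4.06 on WT and 26.0 ± 8.02 on MeXis null. Neither signal was well above background, so this probe gets no fold, and the local background around its spot was marked as an outlier on MeXis null. The 100 spots above background nearest to the brighter probe had a median difference of 0.12. Subtracting such a local median from each spot, called local surface correction here, left Ier2 at 1.504. That was the lowest of its values over the 10 settings, and the highest, 2.12, was the median of its probes, which takes in the dim one.

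**Figure D1:**
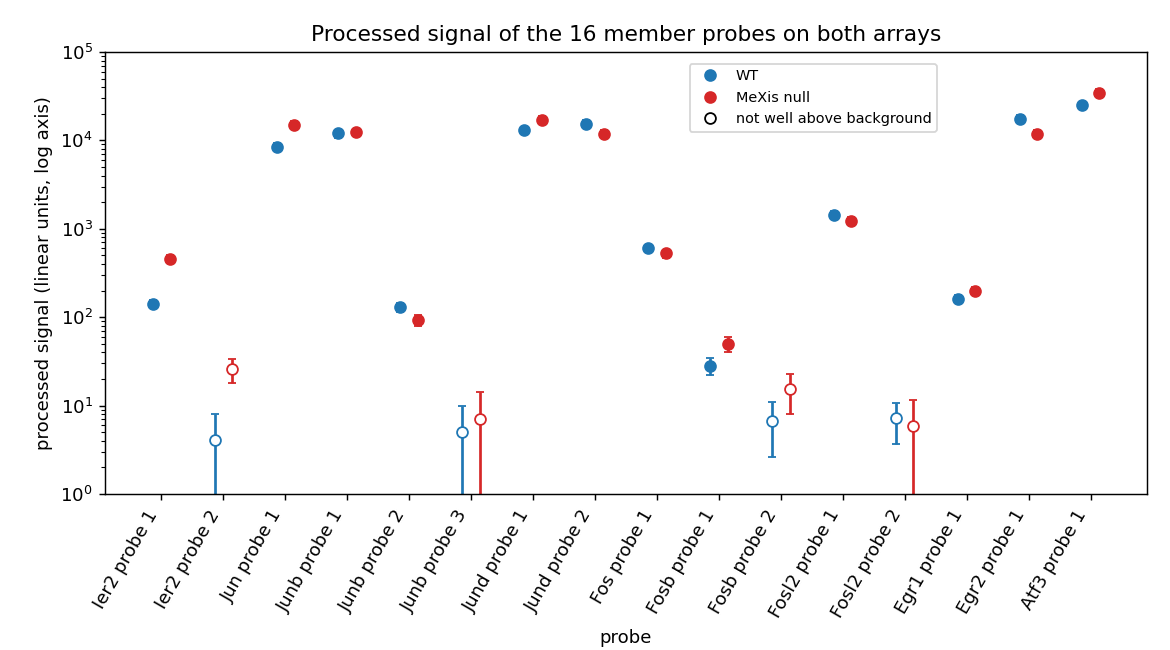
Processed signal (linear units on a log axis) of the 16 member probes on the WT array (blue) and the MeXis null array (red), with the scanner error as bars; bars that would pass below 1 are drawn to the foot of the axis. Probes of a gene are numbered from the brighter to the dimmer by mean log2 signal, and open points were not well above background. Ier2 probe 1 shows the widest gap of the filled pairs, 142 against 459.9.

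The Jun proteins, which can pair with each other or with Fos proteins, were read by 6 probes. Jun itself read 8471 ± 847 on WT and 14998 ± 1500 on MeXis null, which was 1.69-fold higher, a difference of 0.75. This passed the scanner error limit of 0.40 but not the limit of 0.95 between spots, and 22.4% of all gene names lay at least as far from 0. With local surface correction Jun was at 0.74, beyond the limit of 0.67 that applies after that correction (its spread between spots is smaller). The Jun spot on MeXis null was the only one of the 16 member probes that the scanner software had marked as an outlier, for uneven pixels. Its pixel SD was 45.6% of the mean there, against 14.4% on WT. The median pixel signal was 8291.5 on WT and 15152 on MeXis null, so the direction is the same by the median pixel as by the mean. The spot was kept in all values except where stated, and without marked spots Jun has no value.

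Junb, which often opposes Jun at shared targets, read 11982 ± 1198 on WT and 12327 ± 1233 on MeXis null by its brightest probe, a difference of -0.03. Another Junb probe, 978 bases away, gave 129 ± 13.6 on WT and 92.1 ± 12.6 on MeXis null, differing by -0.56. Both Junb probes above background thus lay on the same side of 0, and only the dimmer passed its scanner limit of 0.49. The spots around that dimmer probe had a median difference of -0.75, and after local surface correction it stood at 0.19 and the brightest at -0.30. The third Junb probe read 4.99 ± 5.005 and 7.11 ± 7.13, too dim on each array to be called above background.

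Jund, the Jun protein that is present in most cells without a stimulus, gave opposite answers from probes only 74 bases apart. One gave 13023 ± 1302 on WT and 17133 ± 1713 on MeXis null, differing by 0.33. The other gave 15339.7 ± 1534 on WT and 11835 ± 1184 on MeXis null, differing by -0.44. The gap of 0.77 between them can be set against 3682 gene names with exactly 2 probes above background on both arrays. Their median gap was 0.56, and 35.0% had a gap at least as wide as that of Jund. Probes lay on both sides of 0 for 54.6% of the 5283 gene names with several probes above background on both arrays. Both Jund spots lay where neighbouring spots were higher on MeXis null (medians 0.47 and 0.36), and after local surface correction both were below 0, at -0.14 and -0.81. No direction is given for Jund.

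The Fos proteins cannot pair with themselves and need a Jun partner. Fos gave 602 ± 60.3 on WT and 527 ± 53.2 on MeXis null, differing by -0.26, which was within the scanner limit of 0.40. Its spot lay in an area with a median difference of 0.48, and with local surface correction it was at -0.74. That correction lowers the median SD between spots to 0.34 and the matching limit to 0.67, so the corrected Fos value lay beyond both limits. Fosb, whose protein persists longer in a truncated form, read 28.4 ± 6.26 on WT and 50.2 ± 9.44 on MeXis null. The difference of 0.75 was within its scanner limit of 0.82, which is wide because the probe was dim, and with local surface correction the value of 0.82 was at the edge of it and beyond 0.67. The other Fosb probe, 6.77 ± 4.18 and 15.6 ± 7.47, was too dim on WT and on MeXis null to be called above background, and its local background was marked as an outlier on MeXis null.

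Fosl2, also called Fra-2, read 1450.3 ± 145 on WT and 1233 ± 124 on MeXis null. Its difference of -0.30 was within the scanner limit of 0.40, and its values over the settings ran from -0.38 to -0.25. The second Fosl2 probe, 4928 bases away, read 7.20 ± 3.55 and 5.81 ± 5.83, too dim to be called above background. In the main setting, Fos, Fosb and Fosl2 thus lay within their scanner limits. After local surface correction this does not hold for Fos, and Fosb was then at the edge of its limit.

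The Egr proteins are zinc finger factors induced through serum response factor. Egr1 gave 162 ± 16.9 on WT and 199.9 ± 22.2 on MeXis null, differing by 0.24, which was within its scanner limit of 0.43, and it was at -0.04 with local surface correction. Egr2, which in macrophages is known from resident peritoneal cells and alternative activation, read 17573 ± 1757 on WT and 11954 ± 1195 on MeXis null. It was the lowest member, at 1.54-fold lower, a difference of -0.63. This passed the scanner limit of 0.40 but not the limit of 0.95 between spots, and 30.1% of all gene names lay at least as far from 0. The local background around the Egr2 spot was marked as an outlier on both arrays, and Egr2 was at -0.46 with another background correction (normexp) and at -0.47 with local surface correction.

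Atf3, a bZIP repressor induced by stress, read 24999.7 ± 2500 on WT and 34794 ± 3479 on MeXis null. The difference of 0.41 was at the edge of its scanner limit of 0.40. Neighbouring spots had a median difference of 0.33, and with local surface correction Atf3 was at 0.07.

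As a set, 6 members lay above 0 and 4 below, with a median difference of 0.28, beside a median of 0.06 over all 15586 gene names, of which 54.1% lay above 0. All 10 members were well above background on both arrays by their brightest probe. At 2-fold, 1 of 10 members was higher and 0 were lower, against 7.79% and 4.52% of all gene names. At 1.5-fold, which lies inside the spread between spots, 3 were higher (Ier2, Jun and Fosb) and 1 lower (Egr2), against 19.4% and 13.6% of all. Beyond the limit for a single spot was Ier2 alone, 1 of 10, against 13.9% of all. Beyond the scanner error were 4 of 10 (Ier2, Jun and Atf3 higher, Egr2 lower), against 47% of all. These shares are near the background, so they say nothing particular about the members. With local surface correction 4 members lay above 0 and 6 below, and the median was -0.09, so the set had no direction that held across the settings. Beyond the limit of 0.67 for these corrected values were 4 of 10 (Ier2, Jun and Fosb higher, Fos lower), against 19.2% of all gene names.

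**Figure D2:**
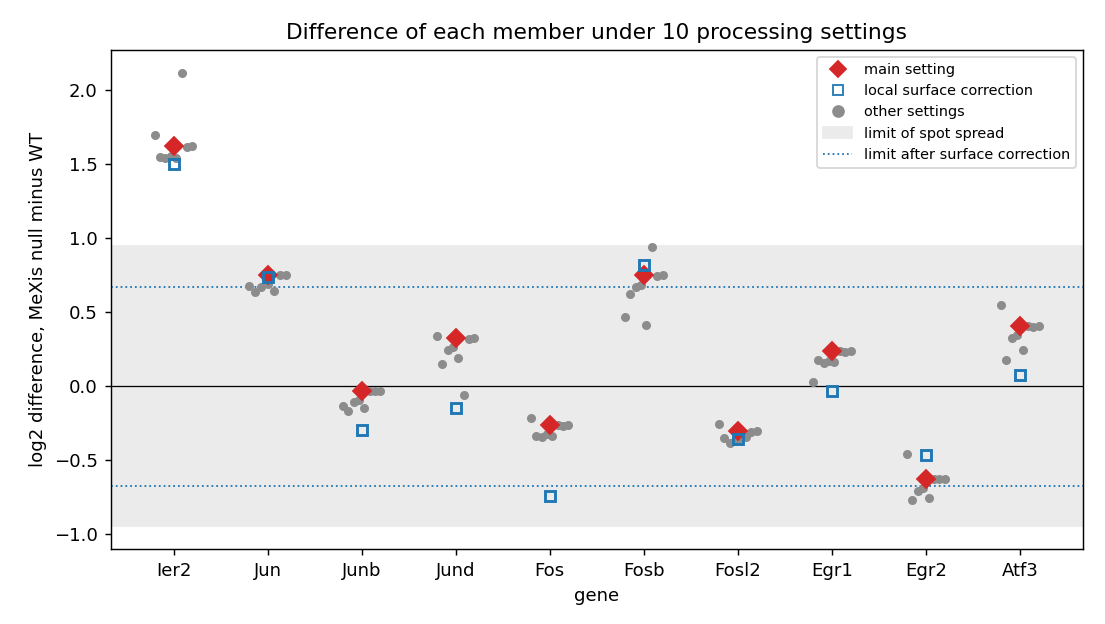
Log2 difference (MeXis null minus WT) of each member under the main setting and 9 alternatives, with the limit for a single spot in the main setting (0.95) as a grey band and the limit after local surface correction (0.67) as dotted lines. Ier2 lies outside the band in every setting (1.504 to 2.12) and the other members lie inside it, while the surface-corrected values of Jun, Fosb and Fos (squares) lie beyond the dotted lines. Jund and Egr1 have values on both sides of 0.

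The other genes of the pathway, in 7 lists, had 110 genes on the array, of which 102 were well above background on both. The MeXis null array was 2-fold or more above WT for 8 of these and 2-fold or more below it for 7, or 7.84% and 6.86%, beside the 7.79% and 4.52% of all gene names. Counts in each list below can be set against the same shares of all gene names. Mapk11, Arc and Mmp9 were above background on WT alone and are in no count. Their signals were 42.0, 29.4 and 38.2 on WT and 35.1, 28.1 and 29.4 on MeXis null. The differences were -0.33, -0.14 and -0.45, and the lowest signal well above background was higher on MeXis null (27.3) than on WT (12.1). Nab1 was not matched by name and was not analysed here. Some genes named below had probes that disagreed in sign, as did 54.6% of all gene names with several probes above background on both arrays.

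Serum response factor and its partners, which are known to occupy the promoters of many immediate early genes before a signal arrives, lay mostly below 0, with 5 of 6 below and none past 2-fold. Srf differed by -0.49, the ternary complex factors Elk4, Elk1 and Elk3 by -0.72, -0.36 and -0.14, and the myocardin-related coactivators Mkl2 and Mkl1 by -0.63 and 0.27. The list median was -0.42, or -0.41 with local surface correction. Each difference in the main setting was within the 0.95 between spots. With local surface correction all 6 were below 0, the highest at -0.15. Srf (-0.84) and Mkl2 (-0.92) were then beyond the limit of 0.67 for corrected values, as were 19.2% of all gene names, and the others were within it. Probes of Elk1 and Mkl2 disagreed in sign, while Srf has 1 probe. By the median of the probes of each gene the list median was -0.00011, beside 0.14 over all gene names. That setting takes in probes not above background, so the distance of the list from 0 depends on how probes are combined.

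Among MAP kinases and their activators, which carry the signal to those factors, 0 of 15 genes above background were 2-fold higher and 3 were lower. Mapk9, which encodes the Jun N-terminal kinase JNK2, went from 1156 on WT to 356 on MeXis null, a difference of -1.77. The ribosomal S6 kinase Rps6ka1, which acts downstream of ERK, was at -1.30, and the third was the p38 kinase Mapk14 at -1.13. Mapk13 (0.99) and Mapkapk2 (0.78) were the highest. Probes of Mapk9 and Rps6ka1 disagreed in sign, and Mapk14 was at -0.56 with local surface correction. The list median was 0.13, or -0.12 with local surface correction.

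MAP kinase phosphatases, themselves induced early and known to switch the kinases off, had 1 of 9 genes 2-fold higher and 0 lower; the list median was 0.06, or -0.29 with local surface correction. Dusp4 went from 205 on WT to 494 on MeXis null, a difference of 1.20 that was 0.72 with local surface correction. Dusp7 was at 0.82, and the lowest were Dusp6 (-0.35) and Dusp10 (-0.34).

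The other AP-1 family genes and dimer partners had 0 of 17 genes 2-fold higher and 2 lower; the list median was 0.07. The small Maf protein Mafg, which pairs with Fos proteins and NRF2, went from 9833 on WT to 3797 on MeXis null, a difference of -1.44, and its probes disagreed in sign. Atf7 (0.78) and Mafk (0.47) were the highest, and the probes of Atf7 disagreed in sign. Fosl1, the remaining Fos gene, and the Egr relatives Egr3 and Egr4 did not rise well above background on any array, and the Egr corepressor Nab2 differed by -0.29.

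The 36 other immediate early genes above background held 3 that were 2-fold higher and 1 that was lower, and their median was 0.10 (-0.09 with local surface correction). The matricellular gene Ctgf went from 345 on WT to 933 on MeXis null, a difference of 1.36. The orphan nuclear receptor Nr4a3 was at 1.27 and Ier5, a relative of Ier2, at 1.13. Nr4a3 was at 0.68 with local surface correction, while Ctgf (1.46) and Ier5 (1.08) remained past 2-fold. Klf2, a Krüppel-like factor known to keep macrophages and endothelium quiescent, went from 1451 on WT to 439 on MeXis null, a difference of -1.80 (-1.26 with local surface correction). Zfp36, which encodes the RNA-binding protein tristetraprolin that degrades AU-rich mRNAs, was at -0.93, but at -0.60 with local surface correction and -0.21 with normexp. The relative Ier5l was at -0.84 and Ier3 at 0.25, but with local surface correction these were at -0.12 and 0.80.

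Genes known as AP-1 or Egr targets had 4 of 18 genes 2-fold higher and 1 lower, against 7.79% and 4.52% of all gene names. With local surface correction 3 were higher and 1 lower, against 3.64% and 3.46% of all. The list median was 0.20, or 0.33 with local surface correction. The membrane metalloproteinase Mmp14 went from 102 on WT to 342 on MeXis null, a difference of 1.68 (0.93 with local surface correction), and the cyclin Ccnd1 was at 1.32, the chemokine Ccl2 at 1.28 and the macrophage elastase Mmp12 at 1.07. The probes of Mmp12 disagreed in sign. Vegfa was the lowest, at -2.37, with probes that disagreed in sign, followed by the heme oxygenase Hmox1 at -0.64.

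**Figure D3:**
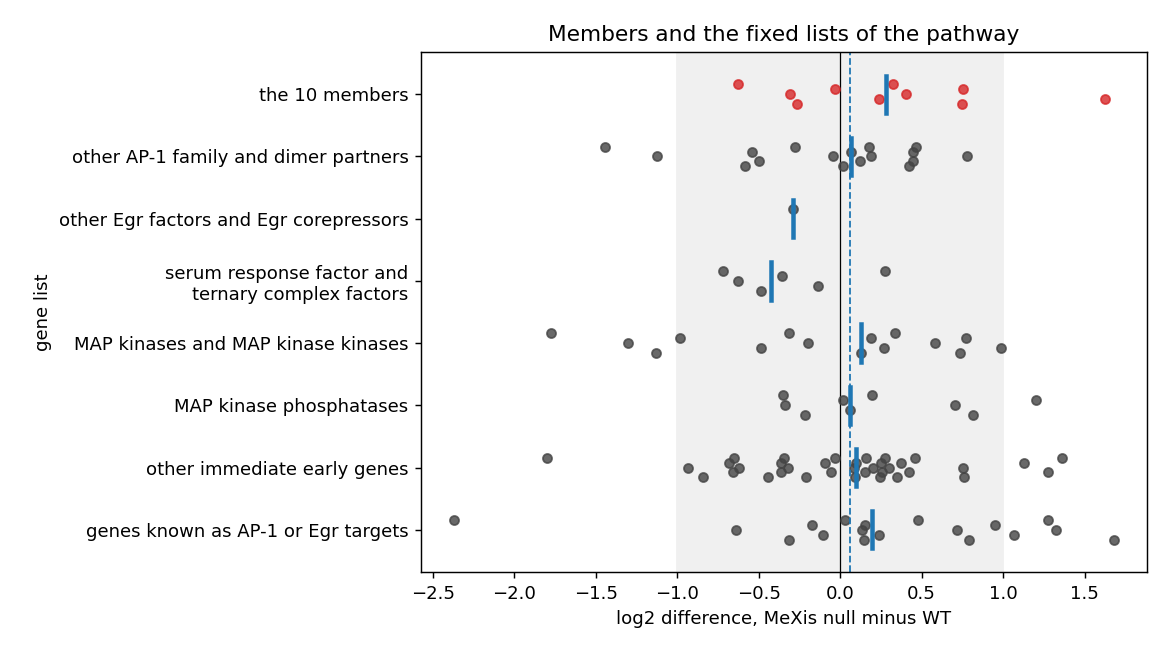
Log2 difference (MeXis null minus WT) of each gene well above background on both arrays, by list, with the list median as a blue bar, the median of all gene names (0.06) as a dashed line and 2-fold as the edge of the grey band. Ier2 is the only one of the 10 members outside the band. The serum response factor list is centred at -0.42 by the brightest probes plotted here. By the median of probes it is at -0.00011, where all gene names are at 0.14.

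Markers of other cell types also differed between the arrays in some of the lists. With 1 array per genotype, a difference of genotype and one of cell preparation cannot be told apart. A marker above background on 1 array alone is in no count or median. The summed signals, in contrast, take in every gene of a list on the array, above background or not. They add unscaled signals of different probes, so the brightest probes weigh most. For such a gene the fold is a lower bound: the array where the gene was not above background is put at its measured signal or, if larger, at the weakest signal well above background there. The cells carried macrophage genes, with 10 of 10 markers well above background on both arrays (from Mertk at -1.94 to Lyz2 at 1.25, median 0.26, summed signal 308371 on WT and 457269 on MeXis null). With local surface correction the macrophage median was -0.02, with Mertk at -1.13 and Lyz2 at 0.52. Of the large peritoneal macrophage markers 6 of 9 were above background on both, Gata6 included, while Timd4, F5 and Alox15 were on neither. Their values ran from Naip1 at -0.69 to F10 at 1.18, with summed signals of 10723 and 18797, and F10 was at 0.41 with local surface correction.

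Among the 9 fibroblast genes above background on both arrays 5 passed 2-fold upward and 0 downward (median 1.02, from Col3a1 at -0.13 to Fbn1 at 1.85, summed signal 8459 and 15325). The surface-corrected median was 0.98, with 4 of 9 past 2-fold. The fibroblast gene Lum went the other way: its signal of 131 on WT compares with 40.3 on MeXis null, where it was not well above background, at least 3.40-fold lower. Pdgfrb and Mfap5 were above background on neither array. Mesothelial genes had 4 of 8 higher and 0 lower (median 0.99, from Krt8 at 0.29 to Wt1 at 1.62, summed signal 991 and 2367), and with local surface correction 3 of 8 and a median of 0.71. With normexp Wt1 stayed past 2-fold (1.56), while Upk3b (0.54), Lrrn4 (0.82) and Upk1b (0.83) did not. Of all gene names 7.79% were 2-fold higher and 4.52% lower. These shares were 3.64% and 3.46% with local surface correction, and 5.88% and 5.18% with normexp.

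Of the B cell genes 2 of 7 passed 2-fold downward and 0 upward (median -0.79, from Cd79b at -1.69 to Cd22 at -0.13, summed signal 3946 and 2557). With local surface correction 5 of 7 did, with a median of -1.14. Of all gene names 4.52% were 2-fold lower, or 3.46% with that correction. Pax5 and Ebf1 were above background on WT alone (at least 1.96-fold and 1.49-fold lower on MeXis null), and Blk on neither array. T cell and NK cell markers were at a median of -0.49 over 5, or -0.17 with local surface correction (from Cd2 at -1.26 to Prf1 at 0.61, summed signal 1380.1 and 1204). Cd5 was above background on WT alone and at least 2.66-fold lower on MeXis null, with Cd3g, Cd8a, Ncr1 and Gzmb on neither.

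Of the eosinophil genes Siglecf, at -0.73, was above background on both arrays, and Ear2, Ear1 and Il5ra were on WT alone. Ear2 went from 1475 to 34.3, at least 45.2-fold lower on MeXis null, and Ear1 was at least 13.8-fold lower. Il5ra read 24.3 on WT and 21.2 on MeXis null. Both lie under the lowest signal well above background on MeXis null (27.3), so Il5ra gets no bound. Epx, Prg2 and Ccr3 were above background on neither array, and the summed signal of the list was 4319 and 1647. The 4 neutrophil genes above background on both had a median of -0.14, or -0.40 with local surface correction (from Csf3r at -0.75 to Elane at 0.21, summed signal 20289 and 13364). Cxcr2 was above background on WT alone, at 26.2 against 16.2, and at least 1.01-fold lower on MeXis null. S100a9 and Ly6g were above background on neither. The mast cell genes Hdc and Tpsb2 were at -0.30 and 0.30 (summed signal of the list 429 and 421). The mast cell proteases Cma1 and Cpa3 were above background on WT alone, at 60.6 and 37.1, and at least 2.33-fold and 1.43-fold lower on MeXis null, with Kit, Fcer1a and Mcpt4 on neither. The 3 endothelial genes above background on both had a median of 0.33, or 0.73 with local surface correction (from Vwf at 0.13 to Esam at 1.11, summed signal 5127.5 and 6009). Pecam1 was above background on WT alone and at least 2.24-fold lower on MeXis null, and Egfl7 on MeXis null alone and at least 2.31-fold higher there, with Cdh5 and Tie1 on neither. Immediate early genes are expressed in all of these cell types, and the part of other cells in the values of Ier2, Jun and Egr2 was not tested.

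**Figure D4:**
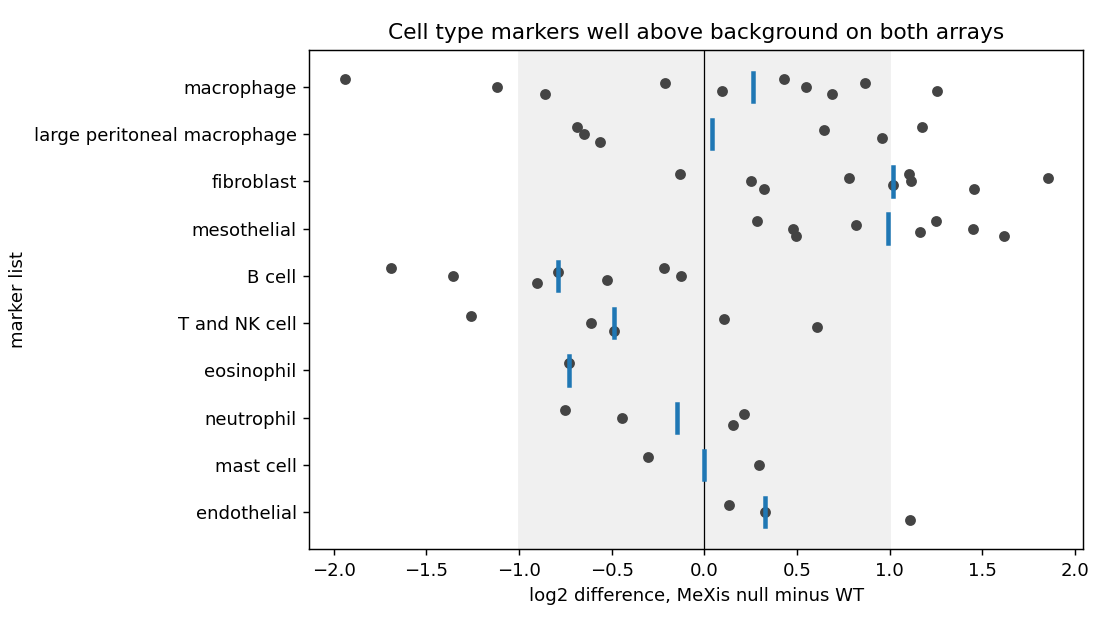
Log2 difference (MeXis null minus WT) of cell type markers well above background on both arrays, with the list median as a blue bar and 2-fold as the edge of the grey band. Fibroblast (1.02) and mesothelial (0.99) medians lie near 2-fold higher in MeXis null, and the B cell median lies at -0.79. Markers above background on 1 array alone, such as Lum, Ear2 and Pecam1, are not drawn.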

How the data were processed

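The authors deposited 1 Agilent scanner file per genotype, with spot intensity on a linear scale that, per the file headers, Feature Extraction 11.5.1.1 had corrected for background and for a surface trend. The series matrix repeats these processed signals for all 62976 features (medians 12.9 on WT and 17.0 on MeXis null), so its values are linear and uncentred. Marked outlier spots (305 on WT, 205 on MeXis null) were kept, and 0 spots were saturated. Replicate spots were averaged as log2 values, and the probe brightest over both arrays stood for its gene. That probe had to be well above background on both arrays for a gene to be counted. The 10 members, the 7 pathway and 10 marker lists and the 2-fold threshold were chosen with earlier results of these data known. Every probe of each member was named, with the 2 highest and 2 lowest genes of each pathway list (all genes of a list of 6 or fewer) and the highest and lowest of each marker list. The value of 1 gene that this rule names is not reported here. Ier5, Ier5l, Ier3, Mapk14, Ccl2, Mmp12, Gata6 and the list genes above background on 1 array or neither were named after their values were seen. Likeness to other genes was not computed, since 2 arrays give 1 difference a gene. Steps were tested on simulated data. Python 3.11.15, numpy 2.4.6, statsmodels 0.14.6 (loess) and limma 3.58.1 (normexp) were used.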

Additional observations from a re-analysis of the deposited data

How the results depend on the processing

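The alternatives were normexp with an offset of 50, quantile normalization, a 75th percentile over all probes, scaling to the median, loess (span 0.3), local surface correction over 100 spots, the median over the probes of each gene, marked spots left out, the series matrix, 1.5-fold and no filter on dim probes. At 1.5-fold 3 members were higher and 1 lower, and 19 and 17 pathway genes, against 8 and 7 at 2-fold. Pathway genes 2-fold lower numbered 11 with normexp and 3 by the median of probes; the cause was not tested. Medians over all genes ran from -0.04 (surface correction) to 0.14 (median of probes) among settings with the filter on dim probes, and the median was 0.48 without it; 3.64% of all were 2-fold higher and 3.46% lower with surface correction, or 6.02% and 5.59% with loess. Surface correction lowered the median SD between spots of a probe from 0.48 to 0.34 and the limit for a single spot from 0.95 to 0.67. Jund was below 0 with surface correction (-0.14) and by the median of probes (-0.06), and Egr1 with surface correction (-0.04); the other 8 members kept their sign where they had a value. Signals near background limit Fosb and the dimmer probes. No paired analysis was possible because each genotype is 1 array, and for the same reason no replicate could be left out.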
